A study of Mus musculus with 8 samples.

Results

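The testis-specific serine kinases (TSSKs) and their protein partners were examined in the transcriptome of mouse testes with and without Tmem232. The members were the 6 kinase genes Tssk1, Tssk2, Tssk3, Tssk4, Tssk5 and Tssk6, the TSSK substrate gene Tsks and the co-chaperone gene Tsacc, chosen by symbol from the 19906 genes of the deposited table, which holds all 8. Whole testes were taken at the age of 2 months from 4 mice labelled Tmem232-/- and 4 labelled Tmem232+/+, and each testis sample gave 1 RNA-seq library. The Tmem232-/- mice come from fertilized C57BL/6 oocytes in which Cas9 and a pair of guide RNAs removed a part of the gene from the germ line, so the deletion is not limited to a cell type, and the Tmem232+/+ mice are wild type. The study used the 2 genotypes to ask which transcripts change in the testis when Tmem232, a gene needed for a normal sperm flagellum, is lost. Total counts were between 15428421 and 16350871 per library.

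Testis-specific serine kinases belong to the AMPK-related branch of protein kinases and are made almost only in haploid male germ cells. They phosphorylate proteins of the spermatid while its nucleus condenses and its flagellum is built. TSKS is a substrate that binds TSSK1 and TSSK2 in the cytoplasm of elongating spermatids, and TSACC is a small co-chaperone that links TSSK kinases to HSP90 and is known to activate TSSK6. Male mice that lack Tssk1 and Tssk2 together, or Tssk6, are infertile, so the family is a standard landmark of late sperm formation.

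Tmem232 itself was read first, since it checks the genotype labels. It had 148, 132, 123 and 122 CPM (counts scaled to a common library size by the TMM method) in replicates 1 to 4 labelled Tmem232-/- and 111, 106, 108 and 109.9 CPM in those labelled Tmem232+/+. The log2 fold change was 0.27 with an SE of 0.072 (adjusted p = 0.0335, Benjamini-Hochberg, edgeR's quasi-likelihood test), so the gene was not lower where it was labelled as deleted. A count over the whole gene also holds exons outside the deleted fragment, and the directions below therefore rest on the labels. The paper reports that the TMEM232 protein was absent from Tmem232-/- testes, which is a result on protein and does not check the labels of these libraries. The call was lost when replicate 1 or 2 of the first label, or 2 or 4 of the second, was left out, with adjusted p-values from 0.0858 to 0.0892.

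Transcripts of 7 of the 8 members were more abundant in the libraries labelled Tmem232-/-, and Tsacc was the exception. All 8 members passed the filter on low counts. The 7 genes were Tssk1 to Tssk6 and Tsks, each with an adjusted p under 0.05 in edgeR, and their fold changes between means ran from 2.05 for Tssk1 to 6.47 for Tssk6. Of the 15787 genes tested, 10.3% were higher at the same threshold and 1.46% lower. The median log2 fold change was 1.19 over the members and -0.054 over all tested genes. The same 7 passed a 2-fold change with an unadjusted p under 0.05, which 5.48% of the tested genes did in this direction and 0.114% in the other. Without replicate 1 labelled Tmem232-/-, 4 members reached the 2-fold limit. For these 7 genes every library labelled Tmem232-/- was above every library labelled Tmem232+/+, as it was for 11.8% of the tested genes (6.88% lay below throughout), and the exact permutation test gave a two-sided p of 0.029 for each, the smallest that 4 against 4 libraries allow.

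**Figure D1:**
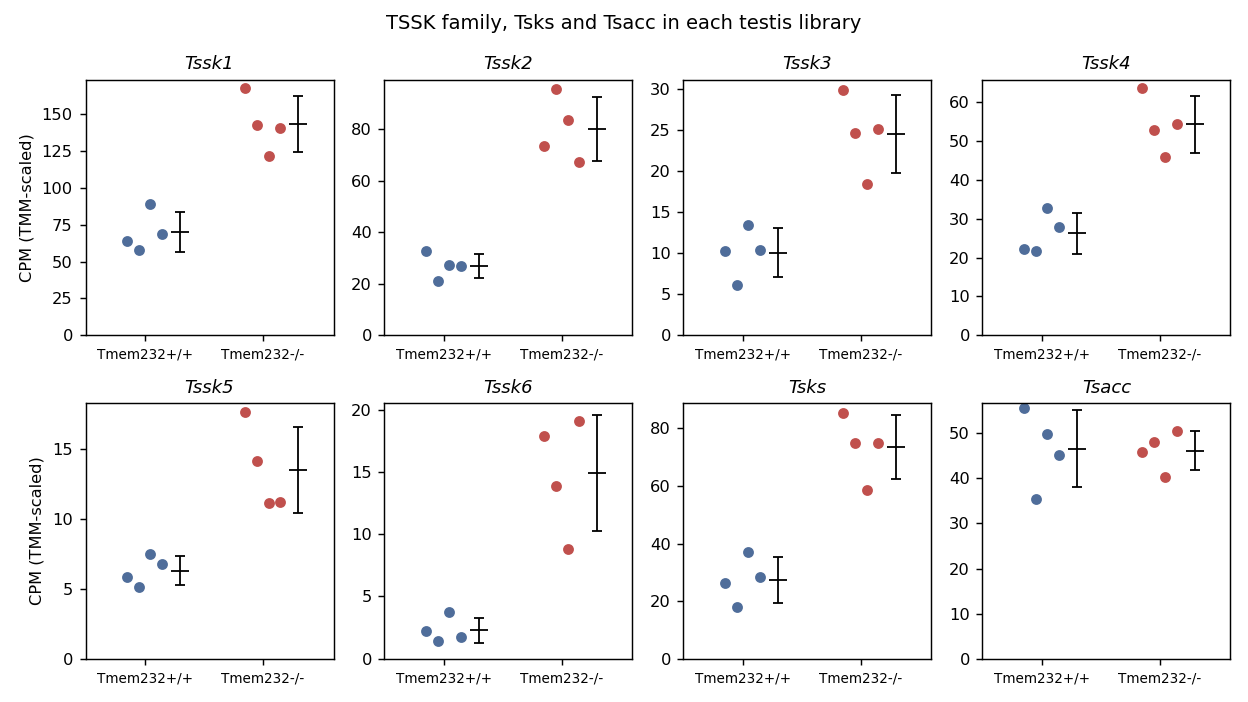
TMM-scaled CPM (y axis, from 0, with its own scale in each panel) of the 8 members in the 4 libraries labelled Tmem232+/+ (blue) and the 4 labelled Tmem232-/- (red), with 1 point per library and the mean ± SD beside them. The red points lie above all blue points in the panels of Tssk1 to Tssk6 and Tsks, and the points of Tsacc overlap, with means of 46.1 and 46.6 CPM.

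Markers of spermatids moved with the family in these whole-testis libraries. Of 11 genes of elongating spermatids, all 11 were higher, where 10.3% of all tested genes were, with a median log2 fold change of 1.67 and a summed level of 1376 to 2279 CPM in the libraries labelled Tmem232-/- and 344 to 699.7 CPM in the others. Prm2, Prm1, Tnp2 and Tnp1, which encode the protamines and transition proteins that package sperm DNA, rose by 4.44, 4.40, 3.86 and 3.54 on the log2 scale. These rises started from low levels, with means of 6.44, 4.55, 16.6 and 5.95 CPM in the libraries labelled Tmem232+/+. The means for the Tmem232-/- label were 139.7, 95.9, 241 and 69.2 CPM. Why the levels under the Tmem232+/+ label were low was not tested. Of 9 genes of round spermatids 5 were higher, against the same share, with a median log2 fold change of 1.01 and sums of 1345 to 1584 CPM and 1043 to 1212 CPM, and the largest rises were 1.26 for Sun5, a head-tail junction gene, and 1.20 for Acrv1, an acrosomal matrix gene. In bulk tissue, more cells of a type and more RNA per cell cannot be told apart, nor can fewer cells and less RNA per cell. The part of these markers in the members' differences was not tested.

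Markers of earlier germ cells, somatic cells, blood and epididymis were read in the same way. Of 8 spermatogonial genes 3 were lower, where 1.46% of all tested genes were, among them Uchl1 at a log2 fold change of -0.35, and 1 was lower without replicate 2 labelled Tmem232-/-, without replicate 1 or 3 labelled Tmem232+/+, or without a filter on low counts. Of 9 spermatocyte markers 1 was higher (Rec8, 0.55) and 1 lower (Dmc1, -0.34), where 10.3% and 1.46% of all tested genes were. The call of Dmc1 was lost without replicate 2 labelled Tmem232-/- or replicate 2 or 4 labelled Tmem232+/+. Neither the 9 Sertoli cell genes nor the 8 Leydig cell genes held a call in the main edgeR fit, with medians of -0.14 and 0.41. That fit used all 8 libraries, the default filter, TMM scaling and no replicate block. At an unadjusted p under 0.05, 2 Sertoli genes were lower and 5 Leydig genes higher. The share of all tested genes at this unadjusted threshold is not given here, so these numbers, and that of the red blood cell genes below, cannot be set against it. Without replicate 4 labelled Tmem232-/-, 3 Sertoli genes were called lower, as were 356 of all 15898 genes tested in that fit. DESeq2 called 2 Leydig genes higher, limma-voom 1, and edgeR 1 without replicate 1 labelled Tmem232-/- or without replicate 1 or 2 labelled Tmem232+/+. Over all genes, DESeq2 called 1822 of 15787 higher and limma-voom 1622. Those edgeR fits called 1356 to 1542 higher, of 15899 to 15933 tested. Of the 6 red blood cell genes, whose summed level ran from 151 to 597 CPM, 1 had an unadjusted p under 0.05 and DESeq2 called none, and edgeR called 2 lower without replicate 2 labelled Tmem232-/-. Over all genes, that last fit called 77 of 15902 lower. Of the epididymal markers, Lcn5 and Spag11b had at most 3 counts in every library, and Crisp1, named after its values were seen, had 83, 1, 0 and 14 counts in replicates 1 to 4 labelled Tmem232-/- and 434, 0, 157 and 0 in the others. Crisp1, the only gene of this list that was tested, had a log2 fold change of -2.54 (edgeR adjusted p = 0.28). The part of blood or epididymal RNA in the members' values was not tested.

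Tssk1 and Tssk2 lie in tandem on chromosome 16, with 2983 bases between them, and each is a gene of 1 exon in the GENCODE annotation. Both kinases bind TSKS, and the deposited annotation places both in the acrosomal vesicle. The table locates Tssk1 (Entrez ID 22114) at chr16:17894203-17895653 and Tssk2 (Entrez ID 22115) at chr16:17898637-17900024, both on the plus strand of GRCm38.p6. Their upstream sequences are shown because this pair rose together from neighbouring start sites. RefSeq promoter windows, with 250 bases before the start and 50 after it on the same build, were found for 7 of the 8 members. The 90 bases that end just before each start (chr16:17894113-17894202 and chr16:17898547-17898636, plus strand, 5′ to 3′) read as follows, with the stretches GACAGTGCTGA and TGACTTCA, on either strand, in capitals:
Tssk1: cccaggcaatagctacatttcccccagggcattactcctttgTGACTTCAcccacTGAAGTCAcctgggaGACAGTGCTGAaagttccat
Tssk2: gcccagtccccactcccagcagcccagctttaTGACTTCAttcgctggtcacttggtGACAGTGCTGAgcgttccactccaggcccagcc

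The best local alignment of the 250 upstream bases of the pair ran from -53 to -2 in Tssk1 and from -63 to -15 in Tssk2, with 41 of 52 columns identical (78.8%). GACAGTGCTGA, with 11 bases, was the longest stretch in common. TGACTTCA, picked after the sequences had been seen, occurs in the windows of Tssk1 and Tssk2 but not in those of the other 5 members searched, and on either strand in 1.52% of the 32851 mouse windows of 300 bases. The cAMP response element TGACGTCA, which the transcription factor CREM binds in spermatids, was in none of the 8 windows of these 7 members, of which Tsacc has 2, and in 1.79% of all windows, and its shorter form TGACG, contained in it, was in the window of Tssk6 and in 20.8% of all. The MYB core AACNGTT (4.45% of all windows), the TATA box TATAAA (13.6%) and the X box (0.387%), searched on both strands, were likewise in none of the 8. These matches describe letters and not binding.

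Tssk1 transcripts were at 168, 143, 122 and 141 CPM in replicates 1 to 4 labelled Tmem232-/- and at 63.9, 58.1, 89.2 and 68.8 CPM in those labelled Tmem232+/+. The lowest value of the first group was above the highest of the second, which was in replicate 3. The fold change between the means was 2.05 (n = 4 and 4), and edgeR gave a log2 fold change of 1.04 with an SE of 0.133 (edgeR adjusted p = 0.000263).

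Tssk2 had 73.3, 95.5, 83.7 and 67.2 CPM in the libraries labelled Tmem232-/- and 32.6, 21.1, 27.2 and 26.8 CPM in the others. Its highest libraries were replicate 2 of the first genotype and replicate 1 of the second, unlike those of Tssk1. The means of 79.9 ± 12.4 and 26.9 ± 4.73 CPM (SD, n = 4) gave a log2 fold change of 1.57 with an SE of 0.139 (edgeR adjusted p = 3.24e-05). The longest run of identical bases between the transcripts of the pair was 113, against at most 14 for any other pair of members, and the deposited counts of both genes are whole in all 8 libraries. How reads that match both genes were assigned is not given in the sources used here, so the split between them is less certain than their sum.

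Within a library, the ratio of Tssk1 to Tssk2 counts had a geometric mean of 1.80 for the Tmem232-/- label and of 2.59 for the Tmem232+/+ label. The ranges overlapped, at 1.46 to 2.29 and 1.96 to 3.28, and the log2 difference of -0.53 gave p = 0.086 in the exact two-sided permutation test (0.114 after adjustment over the 4 pairs of members compared). A difference in the rise of the pair was thus not shown beyond the spread between libraries.

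Tssk3 (Entrez ID 58864, chr4:129489008-129490770, minus strand) encodes a kinase of elongating spermatids and sperm. It had 29.9, 24.6, 18.4 and 25.1 CPM in the libraries labelled Tmem232-/- and 10.3, 6.05, 13.4 and 10.4 CPM in the others. Both groups were spread widely and did not overlap. The log2 fold change was 1.29 with an SE of 0.211 (edgeR adjusted p = 0.00146), between means of 24.5 ± 4.71 and 10.1 ± 3.03 CPM (SD, n = 4).

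Fam229a, a gene on the opposite strand that starts at 129491190, lies just outside the 5′ limit of Tssk3 in the deposited table. In the RefSeq reference, where the 5′ limit of Tssk3 is at 129491730, the genes overlap head to head by 541 bases. Fam229a was also higher, at 25.4, 16.9, 15.7 and 23.0 CPM against 9.16, 5.45, 12.0 and 9.40 CPM, with a log2 fold change of 1.17 with an SE of 0.222 (edgeR adjusted p = 0.00396). Its highest and lowest libraries in the Tmem232+/+ group were those of Tssk3, replicates 3 and 2. The counts of both genes are whole in all 8 libraries. Whether counting used strand, and which of the annotated ends it used, is not given in the sources used here.

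Tssk4 (Entrez ID 71099, chr14:55643604-55652539, plus strand) encodes a kinase of the sperm flagellum that is known to phosphorylate the outer dense fiber protein ODF2 and the transcription factor CREB. It had 63.7, 53.0, 46.0 and 54.5 CPM in the libraries labelled Tmem232-/- and 22.2, 21.7, 32.9 and 28.0 CPM in the others. The log2 fold change was 1.05 with an SE of 0.14, and edgeR gave an adjusted p of 0.000346. As for Tssk1, replicate 3 was the lowest library of the first genotype and the highest of the second. Tm9sf1, which overlaps its 5′ end by 156 bases of the RefSeq reference on the opposite strand, had a log2 fold change of -0.088 (adjusted p = 0.566 from edgeR). For TSSK4 the paper reports the other direction, a decrease in Tmem232-/- testes by western blotting, which measures protein and not transcript.

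Tssk5 (Entrez ID 73542, chr15:76371921-76375193, minus strand) is the least described kinase of the family. Its level was low, at 17.6, 14.1, 11.1 and 11.2 CPM against 5.86, 5.09, 7.47 and 6.76 CPM. The means of 13.5 ± 3.10 and 6.29 ± 1.04 CPM (SD, n = 4) gave a log2 fold change of 1.10 with an SE of 0.175 (edgeR adjusted p = 0.00121). Without replicate 1 labelled Tmem232-/-, its highest library, the log2 fold change was 0.95 and those of Tssk1 and Tssk4 were 0.95 and 0.97, and all 3 kept an adjusted p under 0.05.

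Tssk6 (Entrez ID 83984, chr8:69902184-69903518, plus strand) encodes the small kinase that sperm chromatin condensation requires, the only member with that annotation in the table. Its values were 17.9, 13.9, 8.79 and 19.1 CPM in the libraries labelled Tmem232-/- and 2.24, 1.45, 3.74 and 1.78 CPM in the others. The ratio between the means, 6.47, was the largest of the 8 members, although the distance in CPM was smaller than for Tssk1 or Tssk2, and replicate 3 was again the lowest of the first and the highest of the second. The log2 fold change was 2.69 with an SE of 0.303 (edgeR adjusted p = 0.000115), between means of 14.9 ± 4.64 and 2.30 ± 1.01 CPM (SD, n = 4), which ranked 81 among the 15787 tested genes.

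Some reads of Tssk6 were shared with Ndufa13, a gene of mitochondrial complex I on the opposite strand. Ndufa13 overlaps the first 375 bases of Tssk6 in the RefSeq reference, and 1105 of its 1335 bases by the gene limits that the deposited table lists. The deposited counts of both genes are fractional and complement each other: their sum was whole, within 0.01, in 8 of 8 libraries. The share of the sum given to Tssk6 was 29.8, 28.2, 22.2 and 27.9% where Tmem232-/- was the label, and it was 5.32, 4.19, 6.82 and 4.59% in the others. Ndufa13 alone had a log2 fold change of -0.024 (95% interval -0.37 to 0.32, adjusted p = 0.942 from edgeR). When the reads of both genes were added into 1 row, an alternative chosen after seeing the data, the log2 fold change was 0.36 with an SE of 0.173 (edgeR adjusted p = 0.228). Ndufa13 holds most of these reads in every library, so the sum dilutes a change of Tssk6 by construction and does not test the split. How the authors' counting made the split is not given in the sources used here, and its part in the value of Tssk6 was not tested.

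The sequence upstream of Tssk6 is shown because this start site lies inside Ndufa13, and that of Tsacc because this gene did not follow the others. For Tssk6 (chr8:69902094-69902183, plus strand) the capitals mark the motif TGACG, and for Tsacc (chr3:88297000-88297089, minus strand) they mark the CCAAT box:
Tssk6: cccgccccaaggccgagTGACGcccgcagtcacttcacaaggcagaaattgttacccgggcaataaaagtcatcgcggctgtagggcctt
Tsacc: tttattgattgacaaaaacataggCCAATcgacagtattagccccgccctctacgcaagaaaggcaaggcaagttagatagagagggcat

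The letters CCAAT, on either strand, occur in the windows of Tsacc, Tssk3 and Tssk4 and in 37.4% of all windows. The GC box GGGCGG occurs in those of Tsacc and Tssk6 and in 35.7% of all. Neither motif separates Tsacc from the members that rose.

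Tsks (Entrez ID 22116, chr7:44929577-44958041, plus strand) encodes the TSSK substrate, which the deposited annotation places at the centriole and the acrosomal vesicle. It had 85.3, 74.8, 58.5 and 75.1 CPM in the libraries labelled Tmem232-/- and 26.3, 17.9, 37.2 and 28.5 CPM in the others. The distance between the lowest value of the first group and the highest of the second was wider than the spread within the second. The means of 73.4 ± 11.1 and 27.5 ± 7.94 CPM (SD, n = 4) gave a log2 fold change of 1.42 with an SE of 0.186 (edgeR adjusted p = 0.000303).

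The kinases were also set against their substrate within each library. The ratio of Tssk1 to Tsks was 1.88 to 2.09 in the libraries labelled Tmem232-/- and 2.40 to 3.24 in the others, without overlap, a log2 difference of -0.41 (p = 0.029 in the exact permutation test, and 0.057 after adjustment over the 4 pairs, which does not pass). That p is the smallest the design allows, so a pair cannot pass this adjustment by its own p. That of Tssk2 to Tsks was 0.859 to 1.43 and 0.73 to 1.24, with a log2 difference of 0.12 (p = 0.629 in the same exact test). The highest Tssk1 to Tsks ratio, 3.24 in replicate 2 labelled Tmem232+/+, stood apart from the other 3 of its group.

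Tsacc (Entrez ID 76927, chr3:88282752-88297009, minus strand), the co-chaperone, was the member whose transcript showed no difference at this depth. It had 45.9, 48.0, 40.2 and 50.4 CPM in the libraries labelled Tmem232-/- and 55.6, 35.5, 49.9 and 45.2 CPM in the others, and the first range lies within the second. The log2 fold change was -0.014 with a 95% interval of -0.29 to 0.26 (adjusted p = 0.957 from edgeR, exact two-sided permutation p = 0.971). The interval leaves out the 2-fold change that the kinases showed, and does not show that the levels are equal.

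The ratio of Tssk6 to Tsacc, a kinase and its activating co-chaperone, was 0.22 to 0.391 in the libraries labelled Tmem232-/- and 0.0396 to 0.0755 in the others. The log2 difference was 2.72, with p = 0.029 in the exact permutation test and 0.057 over the 4 pairs, which misses the threshold. Since 0.029 is the smallest p that 4 against 4 libraries allow, a pair cannot pass this adjustment by its own p, and the miss decides nothing. It uses the same Tssk6 counts, part of which were shared with Ndufa13.

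**Figure D2:**
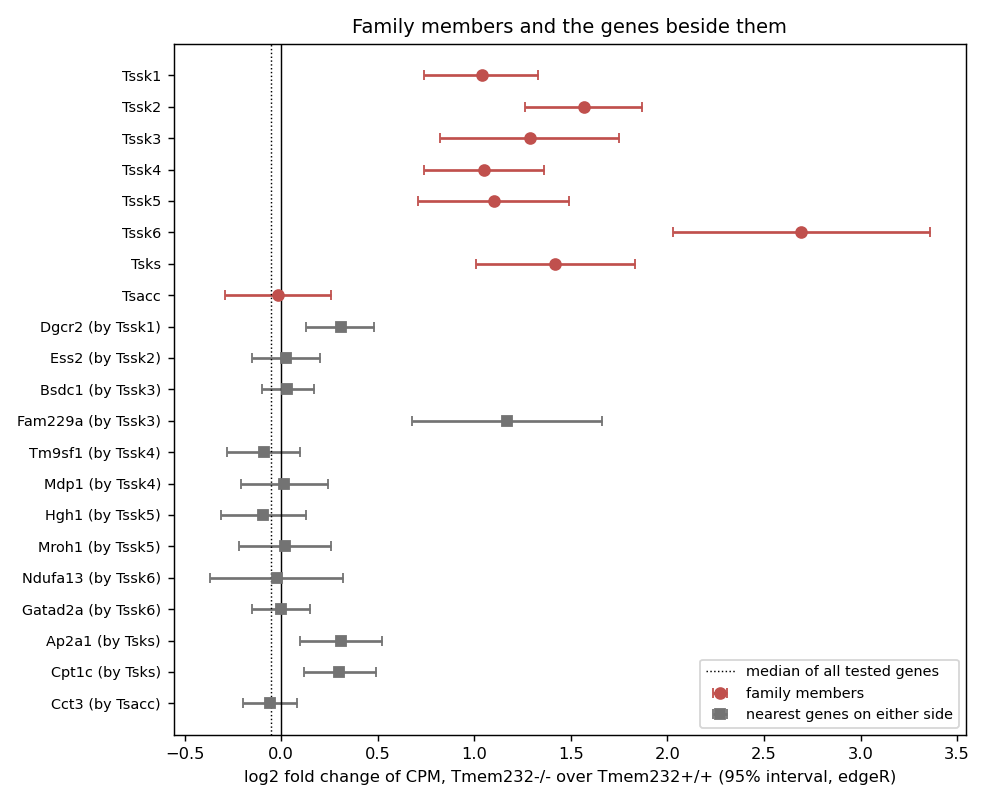
Log2 fold change of CPM (x axis, libraries labelled Tmem232-/- over Tmem232+/+, edgeR, bars for the 95% interval) of the 8 members (red circles) and of the tested genes nearest to them on either side (grey squares), with a dotted line at the median of all tested genes. The 7 rising members and Fam229a lie above 1, the other grey squares between -0.092 and 0.31, and Tsacc at -0.014.

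Among the tested genes beside the members, Fam229a was the only one with a fold change of 2 or more. Of 14 nearest neighbours outside the family, 13 were tested and 3 were higher, against 10.3% of all tested genes. Dgcr2 beside Tssk1 and Cpt1c beside Tsks had log2 fold changes of 0.31 and 0.30 (adjusted p = 0.0264 and 0.0385 from edgeR). Both calls needed replicates 1 and 2 labelled Tmem232-/- and replicate 4 labelled Tmem232+/+, and that of Cpt1c also needed replicate 3 of the first and 2 of the second, since adjusted p-values without one of them were 0.0666 to 0.122. The call of Cpt1c was also lost with a block for the replicate number (edgeR adjusted p = 0.132). The other 10 neighbours lay between -0.092 and 0.31, and the median of the 13 was 0.019. Among them Ap2a1, beside Tsks, missed the threshold (edgeR adjusted p = 0.063) but was called higher by DESeq2 (0.0101). In edgeR it was also called with DESeq2's size factors (0.0402), without a filter (0.0319), and without replicate 4 labelled Tmem232-/- (0.0377) or 1 labelled Tmem232+/+ (0.0319).

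Levels can be compared between genes only per length of transcript, for which the authors' FPKM values were used. Tsacc had the highest level in the libraries labelled Tmem232+/+, at 115 ± 19.1 FPKM, followed by Tssk1 (55.5 ± 11.1), Tssk4 (23.2 ± 5.06), Tssk2 (22.4 ± 3.46), Tsks (16.6 ± 4.83), Tssk3 (12.8 ± 4.14), Tssk5 (4.29 ± 0.695) and Tssk6 (2.00 ± 0.894; SD, n = 4 for each). The ranges of Tssk4 and Tssk2, of Tssk2 and Tsks and of Tsks and Tssk3 overlapped between libraries. Within a library, Tssk2 was above Tsks and Tsks above Tssk3 in all 4, and Tssk4 was above Tssk2 in 3 of 4. The other steps had ranges that were apart.

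The order in the libraries labelled Tmem232-/- differed at 2 places. Tsacc (112 ± 12.7 FPKM) and Tssk1 (111 ± 13.4) had overlapping ranges, with Tsacc above in 3 of 4 libraries. Tssk2 (64.9 ± 9.91) stood above Tssk4 (47.3 ± 6.16), with ranges that did not overlap, and was followed by Tsks (43.2 ± 6.42) and Tssk3 (29.7 ± 5.48). Tssk6 (12.7 ± 4.0) was above Tssk5 (9.03 ± 1.93; SD, n = 4) in all 4 libraries, although their ranges overlapped.

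The 6 kinases together reached 275 ± 26.6 FPKM in the libraries labelled Tmem232-/- and 120.0 ± 22.2 FPKM in the others (SD, n = 4). Tssk1 was the largest part of the sum in both, at 40.3 ± 1.5% and 46.2 ± 2.26%, and its share was lower in every library labelled Tmem232-/-. The share of Tssk6 was 4.58 ± 1.26% and 1.62 ± 0.421%, also without overlap. Like the order of Tssk6 and Tssk5, it uses counts of which part were shared with Ndufa13. Those of Tssk2 (23.9 ± 4.58% and 18.9 ± 3.32%), Tssk3, Tssk4 and Tssk5 overlapped between the genotypes. Tssk1 was the most abundant kinase in each of the 8 libraries.

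**Figure D3:**
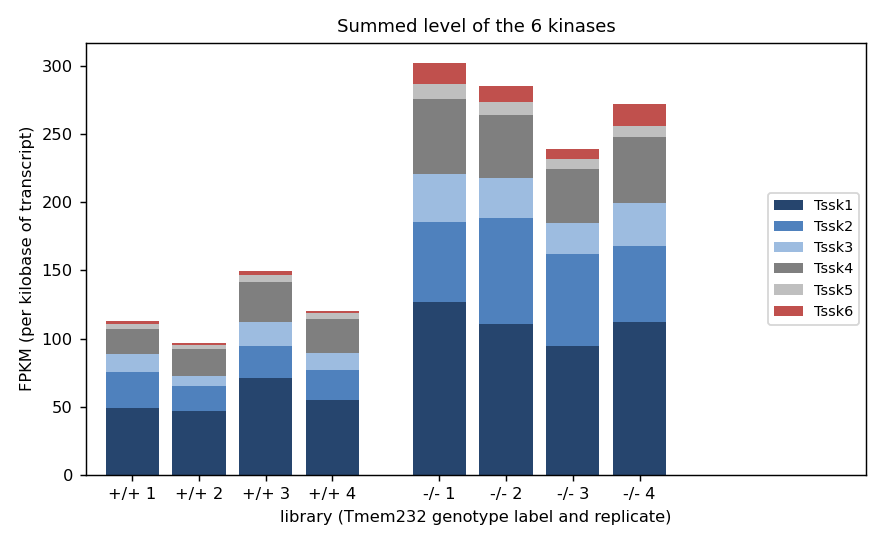
Summed FPKM of the 6 kinases (y axis, from 0) in each library (x axis, genotype label and replicate), with 1 coloured segment per kinase. The sums are 239 to 302 FPKM in the libraries labelled Tmem232-/- and 96.9 to 149.9 FPKM in the others, and Tssk1 (dark blue) is the largest segment in every bar.

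The members varied together within the genotypes as well. After the genotype mean was removed from the log2 CPM values, Tssk3 and Tsks had a Pearson correlation of 0.99 and Tssk1 and Tssk4 one of 0.96 over the 8 libraries. Among Tssk1, Tssk3, Tssk4, Tssk5, Tssk6 and Tsks the correlations were between 0.58 and 0.99. Tssk2 stood outside this pattern, with -0.072 to 0.33 against the same genes, including 0.066 with its tandem neighbour Tssk1. Tsacc had intermediate values with these 6 genes, from 0.35 for Tssk5 to 0.79 for Tssk3. The correlations describe these 8 libraries, which share 1 scaling, and carry no test.

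Single libraries can be read from the same deviations. Replicate 3 labelled Tmem232+/+ was the highest of its group for Tssk1, Tssk3, Tssk4, Tssk5, Tssk6 and Tsks, with a mean deviation over the 8 members of 0.34 on the log2 scale, and replicate 2 was the lowest of its group for all 8 members, with -0.39. Replicate 3 labelled Tmem232-/- had a mean deviation of -0.27 and replicate 1 one of 0.20. The summed level of the elongating spermatid markers had the same highest and lowest libraries, at 699.7 CPM in replicate 3 and 344 CPM in replicate 2 labelled Tmem232+/+, and at 2279 CPM in replicate 1 and 1376 CPM in replicate 3 labelled Tmem232-/-. The part of these markers in the members' spread was not tested.

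**Figure D4:**
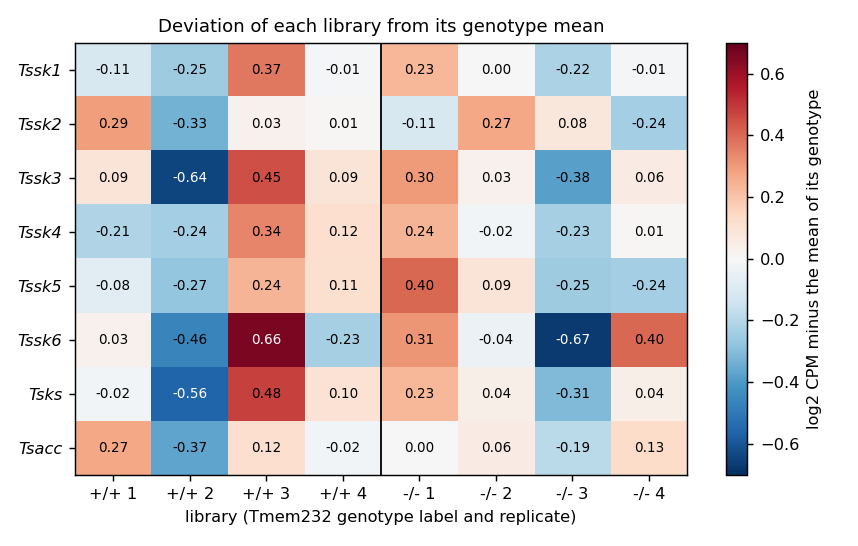
Log2 CPM of each member (rows) in each library (columns, genotype label and replicate) minus the mean of that member in its genotype, written in each cell and coloured from blue (below the mean) to red (above). Replicate 2 labelled Tmem232+/+ and replicate 3 labelled Tmem232-/- are blue in nearly every row, and the row of Tssk2 differs from those of the other kinases.

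The 5 genes whose library pattern was most like the mean of the members, out of 15055 with a mean of at least 1 CPM, were Adam26b (r = 0.997), Irgc1 (0.994), Znrf4 (0.993), 4930404N11Rik (0.992) and Ankrd60 (0.992), over 8 libraries. The likeness used no difference between the genotypes. Their log2 fold changes were 1.12, 1.29, 1.17, 1.39 and 0.40, all called higher by edgeR, where 10.3% of all tested genes were. The profile that picked them has the same highest and lowest libraries as the elongating spermatid markers, so these calls are no separate evidence. The call of Ankrd60 (edgeR adjusted p = 0.0472) was lost without replicate 1, 2 or 4 of either genotype, with adjusted p-values from 0.077 to 0.129. It was also lost with library size alone or either FPKM fit (0.0665 to 0.074).

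Known partners and substrates of the family went both ways. Of 13 genes tested, 3 were higher and 2 lower, where 10.3% and 1.46% of all tested genes were, and the median log2 fold change was -0.036. Hspa1l, a chaperone of the HSP70 family made in spermatids, had the largest fold change of the 5, with 83.7 ± 15.2 CPM in the libraries labelled Tmem232-/- and 19.1 ± 7.54 CPM in the others (SD, n = 4), and its log2 fold change was 2.13 (adjusted p = 9.99e-05 from edgeR). Pdpk1, an upstream kinase of the AGC group that can activate TSSKs, and Odf2, the fiber protein phosphorylated by TSSK4, had 0.44 and 0.31 (adjusted p = 0.0391 and 0.0203). For ODF2 the paper reports the other direction, a decrease in Tmem232-/- sperm by proteomics and western blotting. Those measure protein in sperm and not transcript in testis. H2afx, a histone variant that TSSK6 can phosphorylate, was lower at -0.35 (adjusted p = 0.0148). The other lower gene, named after its value was seen, was the constitutive chaperone gene Hspa8 at -0.25, whose call held without replicate 4 labelled Tmem232-/- and was lost without any other single library (adjusted p from 0.0936 to 0.149). The calls of Pdpk1 and Odf2 were lost when replicate 1, 2 or 3 of the first label, or 2 or 4 of the second, was left out (adjusted p from 0.0516 to 0.119), leaving 1 gene higher, and that of H2afx without replicate 2 of the first (0.0558) or 1 of the second (0.05). Hsp90aa1, the chaperone that TSACC binds, had a log2 fold change of -0.079 (adjusted p = 0.507), and Crem, the spermatid transcription factor, had 0.28 (adjusted p = 0.0716, both from edgeR). DESeq2 called Crem higher (adjusted p = 0.0214), as did edgeR without a filter (0.0348) or without replicate 3 labelled Tmem232+/+ (0.0196).

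Other kinases of spermatids rose in part. Of 10 tested, 4 were higher, where 10.3% of all tested genes were, and the median was 0.14. Dyrk4, a testis-restricted dual-specificity kinase, had 14.2 ± 1.71 and 2.32 ± 1.11 CPM (SD, n = 4), and its log2 fold change was 2.62 (adjusted p = 5.49e-05 from edgeR). Camk4, a calmodulin-dependent kinase that phosphorylates protamine, had 1.53 (adjusted p = 0.000453). Hipk4 and Stk36, which act in sperm head shaping and in motile cilia, had 0.69 and 0.43.

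The AMPK-related kinases outside the family, its nearest relatives by kinase class, gave 1 call among 16 tested genes, a lower one, where 1.46% of all tested genes were lower, with a median of 0.038. That gene was Mark4, a microtubule affinity-regulating kinase, at -0.27 (adjusted p = 0.0265 from edgeR), a call lost without any 1 library other than replicate 4 labelled Tmem232-/- (adjusted p from 0.0708 to 0.0928). The list drawn up for kinases of the meiotic divisions gave 1 call among 10, Mak at 0.35 (adjusted p = 0.00864 from edgeR). That share is near the 10.3% of all tested genes that were higher, and the median was -0.089. The list was written from general knowledge, and whether Mak acts in the divisions was not examined. The other 9 genes had no call. The median over all tested genes was -0.054.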

How the data were processed

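RNA from whole testes of 4 mice labelled Tmem232-/- and 4 labelled Tmem232+/+ was sequenced in read pairs, with 1 library per mouse. The authors mapped reads to GRCm38.p6 with HISAT and Bowtie2 and counted them with StringTie and featureCounts. They deposited estimated counts without normalization, of which 10.7 to 11.2% per library were not whole, and FPKM values per kilobase of transcript. They also deposited fold changes and p-values from DESeq2, which were not used.

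Counts were rounded and analysed with edgeR 4.0.16 in R 4.3.3: default filter on low counts, TMM scaling, quasi-likelihood test without covariates, and Benjamini-Hochberg adjustment over 15787 genes. CPM values were compared by an exact permutation test over 70 arrangements, and ratios within a library after adding 0.5 to the counts. Nothing says whether the mice came from separate litters, and p-values measure the spread between these samples.

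The members and the gene lists were chosen with earlier results of these data known. Named genes were all members, Tmem232, up to 4 called genes with the largest change per list with Odf2, Hsp90aa1 and Crem, the nearest gene on each side of each member, and the 5 genes with the most similar library pattern. Neighbours, promoter windows and exons came from RefSeq and GENCODE on the same build.

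In simulated data for this comparison with 15792 genes tested, edgeR recovered 91.8% of 97 genes changed 2-fold and 100% of 103 changed 4-fold, and 9.43% of its calls were false. In the same simulated data, 14.5% of the calls of DESeq2 and 7.28% of those of limma-voom were false. Alternatives were DESeq2 1.42.0, its size factors, library size alone, no filter, at least 10 counts in every library, limma 3.58.1 (voom, and log2 FPKM with 1 or 0.1 added), a block for the replicate number, and fits that each lacked 1 library.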

Additional observations from a re-analysis of the deposited data

Results flagged for a closer look

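In 78 groups of 4 libraries tested for a single value apart from the others by Dixon's ratio, 5 were found, and chance gives 3.90. The log2 ratio of Tssk1 to Tsks was 1.70 in replicate 2 labelled Tmem232+/+, the highest of its group (ratio 0.953). The log2 ratio of Tssk6 to Tsacc was -3.73 in replicate 3 labelled Tmem232+/+, also the highest of its group (ratio 0.922). Bsdc1, a neighbour of Tssk3, had the lowest level of its group in replicate 4 labelled Tmem232+/+, at 55.3 CPM (ratio 0.851). For the epididymal markers, replicate 1 labelled Tmem232-/- had the highest sum of its group, at 6.46 CPM (ratio 0.89). For the red blood cell markers, replicate 3 labelled Tmem232+/+ had the lowest sum of its group, at 305 CPM (ratio 0.832). No cause was tested for these values.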

How the results depend on the processing

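The calls of Tssk1 to Tssk6 and Tsks kept their direction and an adjusted p under 0.05 in all 17 alternative fits, and a row that adds the more abundant Ndufa13 to Tssk6, chosen after seeing the data, had 0.36 (adjusted p = 0.228), which dilutes Tssk6 by construction and does not test it. With single libraries left out, log2 fold changes were 0.95 to 1.20 for Tssk1, 1.47 to 1.72 for Tssk2, 1.11 to 1.49 for Tssk3, 0.97 to 1.21 for Tssk4, 0.95 to 1.22 for Tssk5, 2.53 to 3.06 for Tssk6, 1.26 to 1.63 for Tsks and -0.12 to 0.12 for Tsacc. Tsacc was never called (adjusted p from 0.5 to 0.997) and changed sign with DESeq2 (0.01), its size factors (0.01), no filter (0.029) and limma-voom (0.0012). The count of members at 2-fold was 4 to 7 with single libraries left out. Tmem232 had 0.21 to 0.32 with single libraries left out. Ndufa13 changed sign without a filter (0.017) and with single libraries left out (-0.14 to 0.14). The log2 difference of Tssk2 to Tsks was -0.03 to 0.24 with single libraries left out.

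Counts over short lists moved more. With single libraries left out, 1 to 4 partners were higher and 0 to 2 lower, 0 to 2 AMPK-related kinases higher and 0 to 1 lower, and 0 to 1 meiotic kinases lower. Over all genes, these fits called 1356 to 1865 higher and 37 to 356 lower, of 15898 to 15941 tested. The partner count lower was 1 with DESeq2's size factors, without a filter, with at least 10 counts and with either FPKM fit. DESeq2 itself called 4 partners higher and 3 lower, and over all 15787 tested genes 1822 higher and 226 lower. For AMPK-related kinases, 1 was higher with DESeq2's size factors and without a filter, and 0 were lower without a filter. With at least 10 counts in every library no epididymal marker was left. Of the Leydig genes 1 was higher with DESeq2's size factors, without a filter and with at least 10 counts. The cause was not tested. Over all genes, calls were 1702 higher and 131 lower with DESeq2's size factors, of 15787 tested. Without a filter they were 1824 and 71 of 19874, and with at least 10 counts 1498 and 184 of 14838. The fits on log2 FPKM with 1 and with 0.1 added called 466 and 448 of 15787 genes lower.

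The labels do not say whether equal replicate numbers pair the mice. Deviations of same-numbered libraries correlated at -0.061, 0.072, -0.332 and -0.105. Replicate 1 labelled Tmem232-/- and replicate 3 labelled Tmem232+/+ correlated at 0.393. Such values cannot show whether mice shared a litter or batch. With the replicate block, calls over all genes were 1317 higher and 28 lower, against 1633 and 230 without it. The block left 1 partner higher and 0 lower and 0 AMPK-related kinases lower and called 3 Leydig genes higher. With it, Ankrd60 (edgeR adjusted p = 0.126), Dmc1 (0.11) and Cpt1c (0.132) lost their calls, Tmem232 had 0.26 (adjusted p = 0.114), and no member's call changed. Calls lower over all genes ran from 28 to 466 over the alternatives. The median over all genes was -0.087 with library size alone and -0.029 with DESeq2.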
